A study of Mus musculus with 2 samples.

Results

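Mir199a-1, Mir199a-2, Mir199b and Mir214 are 4 miRNA genes of the mouse that lie antisense to dynamin genes, and they are chosen here by symbol from the 1973 miRNA genes counted in the series. All 4 were detected, with at least 10 reads in each library. The series holds 2 small RNA libraries, labelled with a size range below 30 (taken here as nt), from the embryonic facial prominence of the strain B6NCrl at embryonic day 12.5, the buds of neural crest mesenchyme under epithelium that form face and jaws. Replicate 1 pooled the tissue of 120 embryos and replicate 2 that of 88, both of mixed sex and healthy. There is no second tissue, age or genotype, so the genes are described within this tissue and between these 2 pools. The tissue is bulk, so fewer cells of a type and less RNA per cell cannot be told apart.

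A miRNA gene is transcribed as a longer RNA, from which a hairpin is cut out and then trimmed to mature strands, one from each arm (5p and 3p). The bases 2 to 8 of a mature strand, its seed, pair with messenger RNAs and largely set which of them are repressed. Mir199a-2 and Mir214 are processed from the noncoding transcript Dnm3os, which is known from the embryonic skeleton, where the transcription factor Twist1 drives it. miR-214 is known for restraining osteoblasts, the cells that lay down bone, and miR-199a for acting on BMP signalling in early cartilage.

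The mature strands that RefSeq lists for the 4 genes come down to 4 sequences with 4 seeds. They are shown with the seed in capitals, since shared strands bear on every count below. Sequences and mature names are from RefSeq on GRCm38.p6, which had a hairpin for all 4 genes and 7 mature entries. Only a 3p strand is listed for Mir199b, so a 5p strand of that gene is not among the sequences.
mmu-miR-199a-5p (Mir199a-1, Mir199a-2): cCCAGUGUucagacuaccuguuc
mmu-miR-199a-3p (Mir199a-1, Mir199a-2; mmu-miR-199b-3p of Mir199b): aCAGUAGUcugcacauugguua
mmu-miR-214-5p (Mir214): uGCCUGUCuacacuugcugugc
mmu-miR-214-3p (Mir214): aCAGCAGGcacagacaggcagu
The strand miR-199a-3p occurred in 3 listed hairpins, miR-199a-5p in 2, and each miR-214 strand in 1. Of the 1494 distinct mature sequences found in a listed hairpin, 95.4% occurred at 1 place and 1.34% at 3 or more, so the Mir199 strands belong to a small class. The seeds of miR-199a-3p and miR-214-3p, both of which open with the letters CAG, differ by U5C and U8G (the base of miR-199a-3p, the position from the 5′ end, the base of miR-214-3p).

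The whole hairpins show where the genes differ outside these strands, with the listed mature strands in capitals.
Mir199a-1: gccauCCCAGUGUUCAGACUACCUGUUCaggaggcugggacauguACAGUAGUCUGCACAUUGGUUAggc
Mir199a-2: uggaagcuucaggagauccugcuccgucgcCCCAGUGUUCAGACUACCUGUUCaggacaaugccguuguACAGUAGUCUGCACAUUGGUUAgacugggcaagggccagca
Mir199b: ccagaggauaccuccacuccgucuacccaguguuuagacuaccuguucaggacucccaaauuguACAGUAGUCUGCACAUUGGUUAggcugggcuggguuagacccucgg
Mir214: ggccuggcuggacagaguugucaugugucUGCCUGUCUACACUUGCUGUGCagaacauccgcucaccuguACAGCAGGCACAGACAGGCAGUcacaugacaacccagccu
The listed gene of Mir199a-1 was 70 bases long and the other 3 were 110 each, with a GC content from 52.7% (Mir199b) to 56.4% (Mir214). The hairpin of Mir199b holds, at its bases 26 to 48, a stretch that differs from miR-199a-5p by C10U (the base of miR-199a-5p, the position from its 5′ end, the base of Mir199b), shown with that base in capitals.
Mir199b, bases 26 to 48: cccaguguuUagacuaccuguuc

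Each of the 4 genes lay inside a dynamin gene on the opposite strand (positions on GRCm38, annotation GENCODE M21). Mir199a-1 (ENSMUSG00000065547.1) lay at chr9:21496495-21496564 on the minus strand, in an intron of Dnm2, 1878 bases from its nearest exon. Mir199b (ENSMUSG00000092807.1) lay at chr2:32318460-32318569 on the plus strand, in an intron of Dnm1, 1129 bases from the nearest exon. Neither had a host gene annotated on its own strand. Mir199a-2 (ENSMUSG00000070126.1, chr1:162217814-162217923) and Mir214 (ENSMUSG00000065516.1, chr1:162223368-162223477) lay on the plus strand, both within exons of Dnm3os and within an intron of Dnm3, which runs the other way. They were 5444 bases apart. Of the 6 annotated Dnm3os transcripts, 2 held the whole Mir199a-2 hairpin in an exon and 2 held the whole Mir214 hairpin. None of the 4 genes overlapped a coding exon or an untranslated region of a dynamin gene.

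Mir214 carried nearly all reads of the group. It had 215341 reads, or 45629.5 CPM, in replicate 1 (CPM is reads per 1000000 reads on the own strand of all listed genes) and 272210 reads, or 45909.9 CPM, in replicate 2. The mean was 45770 ± 198 CPM (SD, n = 2), and Mir214 was the fourth highest of the 395 detected genes in both libraries. The exact Poisson intervals at 95%, which cover counting error only, ran from 45437 to 45823 CPM in replicate 1 and from 45738 to 46083 CPM in replicate 2, so the libraries overlapped.

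Mir199b came second, with 7969 reads (1689 CPM) in replicate 1 and 10926 reads (1843 CPM) in replicate 2. Its mean was 1766 ± 109 CPM (SD, n = 2), which placed it at rank 80 of 395. The intervals of 1652 to 1726 and 1808 to 1878 CPM did not overlap, and replicate 2 was the higher library.

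Mir199a-2, the neighbour of Mir214 in Dnm3os, had 1047 reads (222 CPM) in replicate 1 and 1648 reads (278 CPM) in replicate 2. The mean of 249.9 ± 39.7 CPM (SD, n = 2) placed it at rank 153. Mir199a-1, in the Dnm2 intron, was the lowest, with 113 reads (23.9 CPM) in replicate 1 and 182 reads (30.7 CPM) in replicate 2. Its mean was 27.3 ± 4.77 CPM (SD, n = 2), at rank 265. For Mir199a-2 the counting intervals, 209 to 236 and 265 to 292 CPM, left a gap between the libraries, whereas those of Mir199a-1, 19.7 to 28.8 and 26.4 to 35.5 CPM, overlapped.

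**Figure D1:**
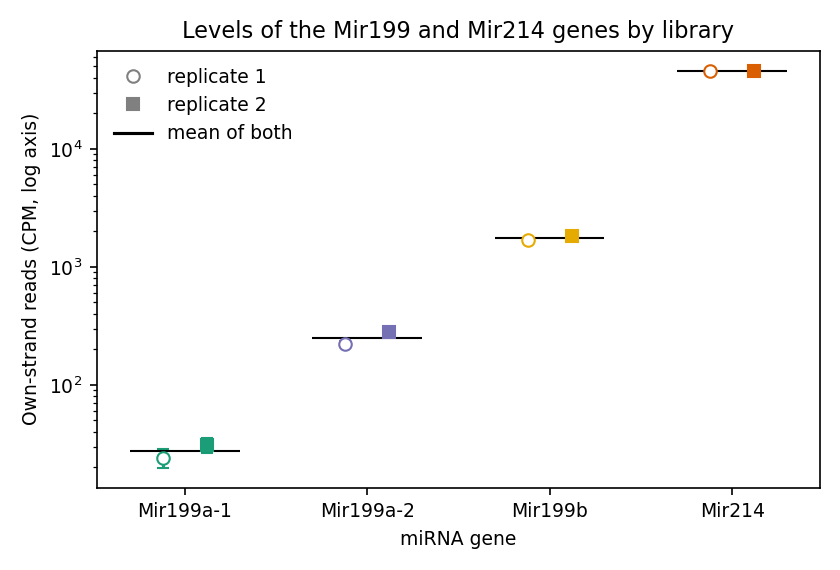
Own-strand reads of each gene in CPM on a log axis, for replicate 1 (open circle) and replicate 2 (filled square), with exact Poisson intervals at 95% (smaller than the symbol for most points) and the mean of both as a line. The 4 genes are stepped from 27.3 CPM (Mir199a-1) to 45770 CPM (Mir214), and within each gene both libraries lie close together.

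The order Mir214, Mir199b, Mir199a-2, Mir199a-1 was the same in both libraries, and each gap between neighbours was wider than the spread of either gene. Mir214 had 27.0 times the reads of Mir199b in replicate 1 (exact interval 26.4 to 27.6) and 24.9 times in replicate 2 (24.4 to 25.4). Mir199b had 7.61 times (7.14 to 8.13) and 6.63 times (6.29 to 6.99) the reads of Mir199a-2. Mir199a-2 in turn had 9.27 times (7.62 to 11.4) and 9.05 times (7.77 to 10.6) those of Mir199a-1. Per base of the listed gene, which is shorter for Mir199a-1, the last step was 5.83-fold as the mean of both libraries, and the other steps were as above. The common biological coefficient of variation between the libraries, over all detected genes, was 0.190. It describes how a gene varies between libraries and is not a measure of error for the steps between genes.

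Together the 4 genes took 4.76% of own-strand gene reads in replicate 1 and 4.81% in replicate 2 (mean 4.78% ± 0.0352, SD, n = 2). Of the reads on the 4 genes, Mir214 held 95.9% in replicate 1 (exact Clopper-Pearson interval 95.9 to 96.0) and 95.5% in replicate 2 (95.4 to 95.6). The 3 Mir199 genes summed to 1934 and 2151 CPM, or 2043 ± 153 CPM (SD, n = 2). Within that sum Mir199b held 87.3% in replicate 1 and 85.7% in replicate 2. Thus the Mir199 reads that the tables assign to a gene were mostly assigned to the Dnm1 locus, and not to the locus that also gives Mir214.

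How much of a hairpin can be told from other listed genes differed among the members. All 89 windows of 22 bases in the Mir214 hairpin occurred at 1 place among the 1894 listed genes with a sequence. The share was 91.0% for Mir199b (81 of 89 windows), 86.5% for Mir199a-2 (77 of 89) and 73.5% for Mir199a-1 (36 of 49). Windows at several places numbered 8 for Mir199b, 12 for Mir199a-2 and 13 for Mir199a-1. Mir199a-1 and Mir199a-2 thus differ in share mainly through the shorter listed gene of Mir199a-1. The windows that occurred at several places clustered on the arms that give the mature strands, as the plot of windows along the hairpins shows. No window of a member occurred in a GENCODE transcript of a gene outside the dynamin loci and the listed miRNA genes, and the genome outside transcripts was not searched here. Every window being at 1 place was common among listed genes: it held for 53.7% of them and for 82.0% of the detected ones.

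**Figure D2:**
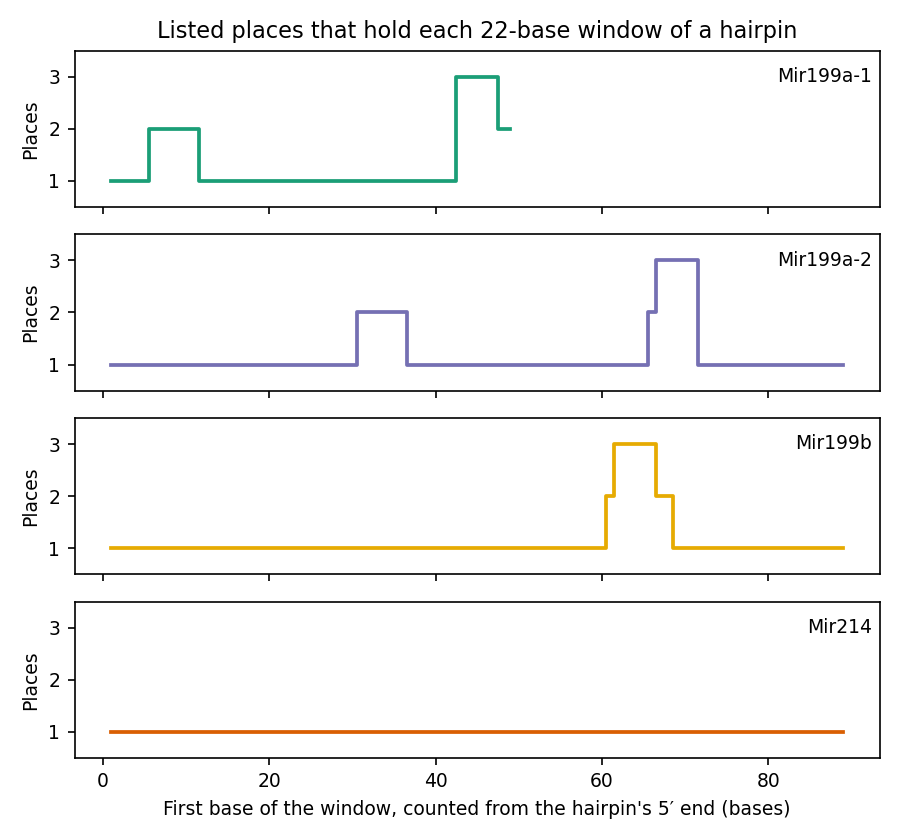
Number of listed places (vertical axis) that hold each window of 22 bases, by the window's first base from the 5′ end of the hairpin (horizontal axis, bases), for the 4 genes. Mir214 stays at 1 throughout, Mir199b rises to 3 over its 3′ arm, and both Mir199a genes rise to 2 over the 5′ arm and to 3 over the 3′ arm.

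The shared parts ran longer than the mature strands themselves. Mir199a-1 and Mir199a-2 have in common an unbroken run of 27 bases over the 5′ arm, Mir199a-2 and Mir199b one of 27 bases over the 3′ arm, and Mir199a-1 and Mir199b one of 28 bases there, printed here because a read inside one fits more than 1 gene.
Mir199a-1 and Mir199a-2: cccaguguucagacuaccuguucagga
Mir199a-2 and Mir199b: uuguacaguagucugcacauugguuag
Mir199a-1 and Mir199b: uguacaguagucugcacauugguuaggc
Mir214 shared no run of over 7 bases with any of them. Read from the first base of miR-199a-5p, the 2 Mir199a hairpins first differ at base 28, although the strand is 23 bases long and the libraries were limited to less than 30 nt. Read from the first base of miR-199a-3p, a strand of 22 bases, Mir199a-2 first differs from Mir199a-1 and from Mir199b at base 24. The stretch of Mir199b that differs from miR-199a-5p by C10U is the exception: all 22 windows that cover the differing base, base 35 of the hairpin, occurred at 1 place.

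The tables place reads that map to several sites in an entry of their own, which names no gene. That entry held 2970119 reads in replicate 1 and 3575159 in replicate 2, which is 325 and 280 times the reads assigned to the 3 Mir199 genes. Which mature strands those reads carry was not given in the files used here, so the part of Mir199 reads among them was not tested. The levels of the 3 Mir199 genes are therefore those of reads that fitted 1 place. The steps between these genes and Mir214 do not compare amounts of mature miR-199 and miR-214. Nor do the steps among the 3 Mir199 genes compare amounts made at each locus. The stretch of Mir199b that resembles miR-199a-5p fits 1 listed place, while both listed strands of the Mir199a genes fit more than 1.

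Among the 8 detected genes with no RefSeq mature strand at 1 place, Mir199b was the first by level, Mir199a-2 the second and Mir199a-1 the seventh. RefSeq lists no 5p strand for Mir199b. The first 22 bases of its stretch that differs from miR-199a-5p by C10U occurred at 1 place. Mir199b is thus in this class by the listing, and its position is unlike that of the Mir199a genes. There were 46 listed genes with a matched RefSeq mature strand but none at 1 place (Mir199b by its 3p strand), and 8 of them (17.4%) were detected, with a median of 84.5 CPM. Mir199b was the highest of the 8, Mir199a-2 the second and Mir199a-1 the seventh. The let-7 gene Mirlet7a-1 was the third. The 3 Mir199 genes are themselves among the 8 and in their median, which is therefore no background apart from them. Genes with at least 1 mature strand at 1 place numbered 866, of which 349 (40.3%) were detected with a median of 138 CPM, and Mir214 was the fourth of these. By the wider measure of an 18-base stretch shared with another listed gene, which holds for the 3 Mir199 genes and 963 listed genes in all, Mir199b ranked 16 of 96 detected genes, Mir199a-2 ranked 32 and Mir199a-1 ranked 64.

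**Figure D3:**
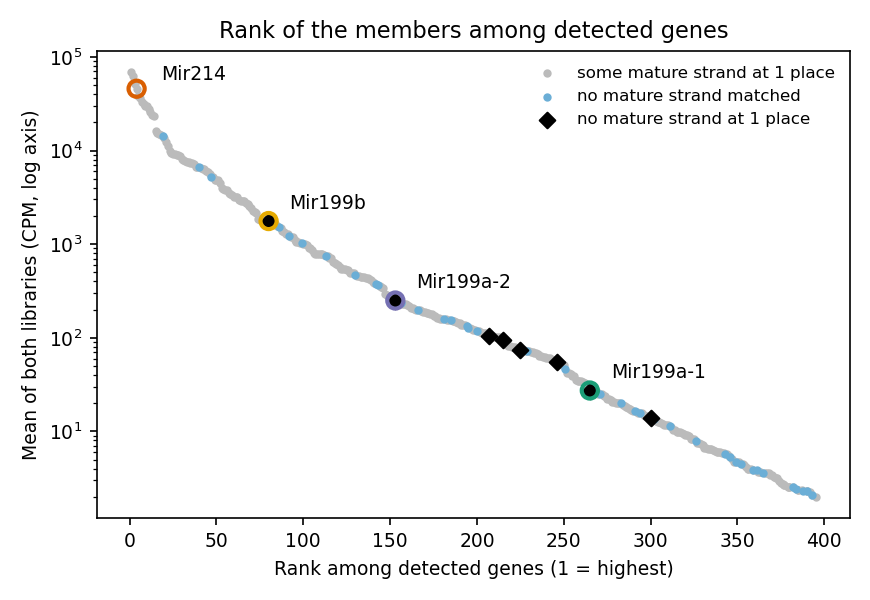
Mean CPM of both libraries (log axis) against rank for the 395 detected genes, with the 4 members ringed. Black diamonds are genes with no RefSeq mature strand at 1 listed place. Grey points are genes with at least 1 such strand and blue points genes with no matched mature strand. Mir199b at rank 80 and Mir199a-2 at rank 153 are the highest of the diamonds, while Mir214 sits at rank 4 among grey points. RefSeq lists only the 3p strand of Mir199b.

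Between the pools, Mir214 hardly differed, and the 3 Mir199 genes had higher values in replicate 2. The log2 ratio of replicate 2 over replicate 1, with TMM library sizes, was 0.0036 for Mir214 (exact interval -0.0045 to 0.012; exact binomial test, Benjamini-Hochberg adjusted p = 0.506). For Mir199b the log2 ratio was 0.12 (0.079 to 0.16; exact binomial adjusted p = 4.40e-08). Mir199a-2 had a log2 ratio of 0.32 (0.21 to 0.43; exact binomial adjusted p = 5.63e-08), and Mir199a-1 one of 0.35 (0.0066 to 0.70; exact binomial adjusted p = 0.0749). The test compares these libraries, not conditions, and covers counting error only.

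Called genes were those past an adjusted p of 0.05 with at least a 2-fold difference, and 0 of the 4 members were called, where 4.05% of all 395 detected genes were. With no limit on size, 2 of 4 members (Mir199b and Mir199a-2) passed, both higher in replicate 2, beside 51.9% of all detected genes in either direction and 27.1% in that direction. With edgeR's exact test at a coefficient of variation fixed at 0.2, which stands in for the spread between pools, 0 of 4 members passed (edgeR adjusted p = 1 for each, lowest unadjusted p = 0.442), beside 0.506% of all genes. In that test the smallest fold with an unadjusted p under 0.05 was 1.83, and the largest of a member was 1.28, so differences as small as these could not pass and the result says nothing of their stability. The differences of Mir199b and Mir199a-2 were beyond counting error alone, with each read taken as an independent count. All 4 members had the higher value in replicate 2, as had 49.9% of detected genes.

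The gap of Mir214 was small: with TMM library sizes 2 of 395 detected genes had a smaller absolute log2 ratio. With the sum over gene rows as library size there were 9 such genes (log2 ratio 0.0088), and with DESeq2 size factors 28 (log2 ratio 0.024). For Mir199b, with TMM sizes, 30.9% of detected genes had a smaller one, for Mir199a-2 63.8% and for Mir199a-1 69.1%, against a median absolute log2 ratio of 0.23. Mir199a-2 and Mir214, which share the host Dnm3os, had different ratios of reads in the 2 libraries. Mir199a-2 had 4.86 reads per 1000 Mir214 reads in replicate 1 (exact interval 4.57 to 5.16) and 6.05 in replicate 2 (5.77 to 6.35). These intervals cover counting error only and do not overlap, and a difference of this size between pools was not tested against the spread of pools. Reads that mapped to several places made up 26.0% of replicate 1 and 27.9% of replicate 2, and the part of that difference in this ratio was not tested.

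**Figure D4:**
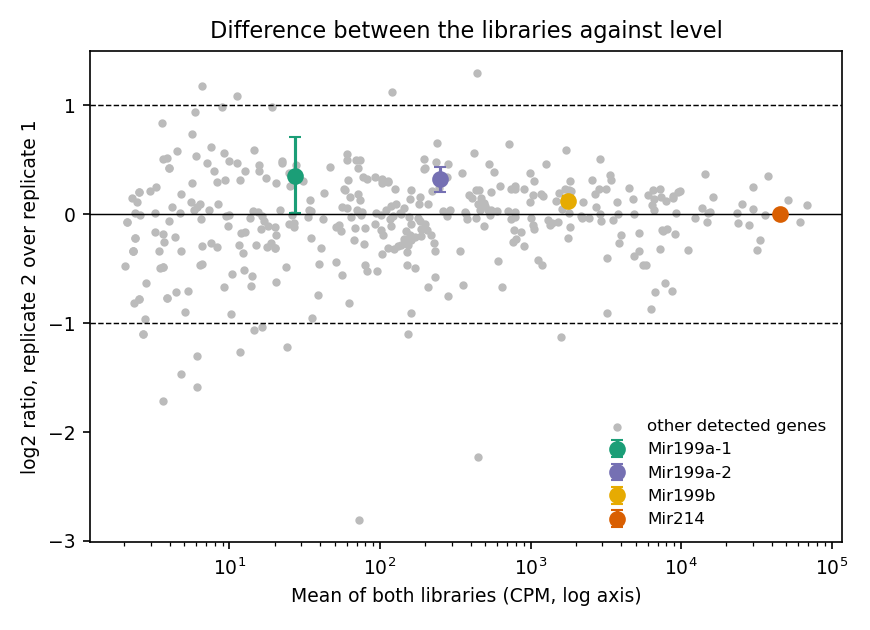
Log2 ratio of replicate 2 over replicate 1 (vertical axis) against mean CPM (log axis) for all 395 detected genes, with exact intervals at 95% on the 4 members. The dashed lines mark a 2-fold difference. The 4 members lie between the lines, with Mir214 at 0.0036 and Mir199a-1 at 0.35.

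Reads on the opposite strand, where the dynamin genes run, were almost absent at the 4 genes. Mir214 had 2 such reads in replicate 1 and 3 in replicate 2, Mir199a-2 had 1 and 0, and Mir199a-1 and Mir199b had 0 in both. That is 3 reads in each library, or 0.00119% ± 0.000201 of the reads on the members (SD, n = 2), while opposite-strand reads made up 3.24% and 3.29% of reads on all listed genes. A count of 0 allows a level of up to 0.636 CPM in replicate 1 (3 reads) and up to 0.506 CPM in replicate 2.

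Near the members and with their seeds, few other listed genes had reads. Mir214 and Mir199a-2 had only each other within 10000 bases, and Mir199a-1 had no listed gene in that range, the nearest on its chromosome being Mir1946b at 116879 bases. Gm23363 lay 116 bases from Mir199b on the same strand and had 4 reads in replicate 1 and 7 in replicate 2, below the minimum of 10. The seed of miR-214-3p was shared by 1 other listed strand, printed with the seed in capitals because it would pair with the same seed sites.
mmu-miR-761 (Mir761): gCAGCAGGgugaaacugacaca
Mir761 had 6 reads (1.27 CPM) in replicate 1 and 0 in replicate 2. It was thus below the minimum of 10 reads that Mir214 passed by far. The seeds of miR-199a-5p, miR-199a-3p and miR-214-5p were found in the members alone among the 1674 distinct RefSeq mature sequences.

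The genes whose levels were most like those of a member in both libraries, by the larger of the 2 absolute log2 CPM differences, came from other loci. Nearest to Mir214 were Mir17 of the miR-17-92 cluster (log2 difference 0.24), Mir23b (0.35) and Mir322 (0.45). Nearest to Mir199b were Mir107 (0.083), Mir337 (0.088) and Mir484 (0.11). Mir362 (0.061), Mir500 (0.17) and Mir145a of smooth muscle (0.18) were nearest to Mir199a-2. Nearest to Mir199a-1 were Mir216b (0.040), Mir34b (0.054) and Mir669e (0.15). With 2 libraries this likeness is little more than a similar level.

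Set among 24 other miRNA genes known from bone, cartilage and connective tissue, Mir214 was second and the Mir199 genes were spread down the order. Of the 24 genes, 22 were detected, with a median of 536 CPM beside 122 CPM over all 395 detected genes. The list was chosen with earlier results of these data known, so its higher median is a description and no test. Mir335, whose host Mest is imprinted, was the only one above Mir214, at 69100 ± 2984 CPM (SD, n = 2). Mir140, which acts in cartilage and lies within Wwp2, followed at 14833 ± 518 CPM. Mir199b ranked 10 of the 26 detected genes of both groups, level with the cartilage gene Mir455 (1772 ± 189 CPM), since their means differed by less than either SD. Mir199a-2 ranked 15, next to Mir145a (235 ± 55.3 CPM), from which it differed by less than either SD. Mir199a-1 ranked 25, level with Mir34b (27.6 ± 6.06 CPM), a gene of the p53-responsive miR-34 family. Only Mir218-1 (12.7 ± 0.972 CPM) was lower among those detected.

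The other members of that list ranged from Mir143 at 14425 CPM to genes below the minimum. Mir21a, which is induced in fibroblasts, had 7201 ± 826 CPM and Mir22 had 2735 ± 89.0 CPM (SD, n = 2). The Mir29 genes, whose strands repress collagens, were low, with Mir29c at 60.2 ± 14.8 CPM, Mir29a at 55.4 ± 4.11 CPM, and Mir29b-1 and Mir29b-2 below the minimum. Of the 24 genes, 10 shared an 18-base stretch with another listed gene, Mir29c, Mir29b-1 and Mir29b-2 among them. The 4 members held 27.6% of the reads on the members and this list in replicate 1 and 26.5% in replicate 2. Between the libraries, 14 of the 22 detected genes of the list passed the adjusted p with a higher value in replicate 2 and 4 with a higher value in replicate 1, beside 27.1% and 24.8% of all 395 detected genes. Of these, Mir211 alone also passed the 2-fold limit, with a log2 ratio of 1.29 (exact binomial adjusted p = 1.02e-182). Counting error is all that the test covers, so genes with more reads pass the adjusted p more readily. The detected genes of the list had a median of 536 CPM, beside 122 CPM over all detected genes.

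**Figure D5:**
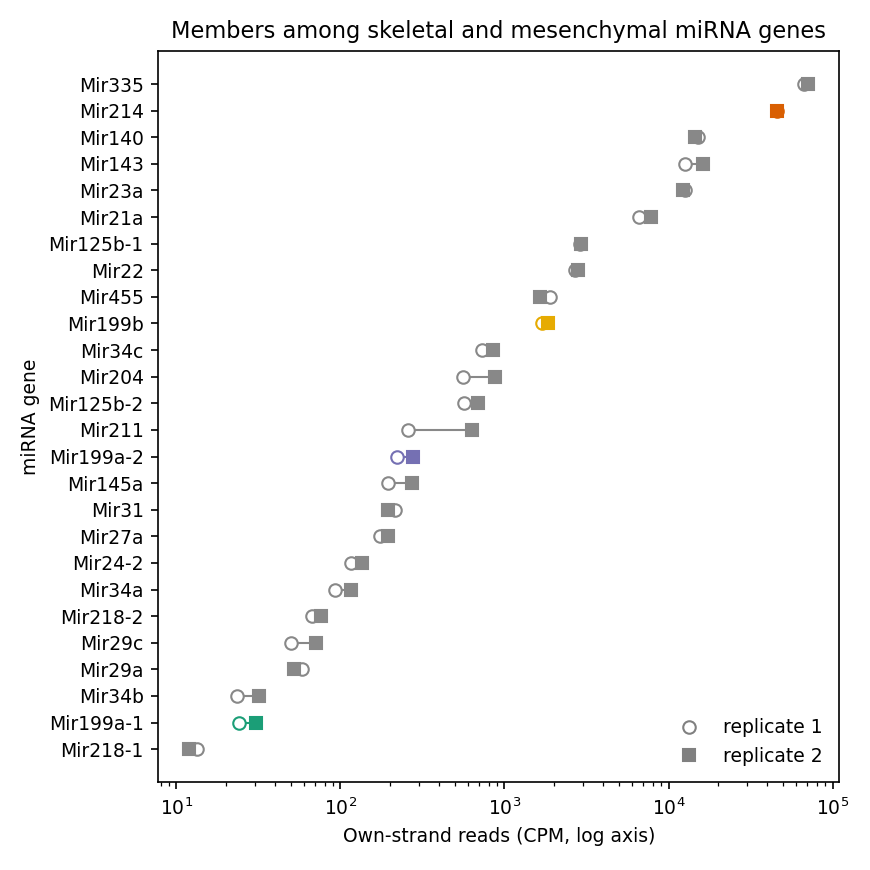
CPM in replicate 1 (open circle) and replicate 2 (filled square) on a log axis for the 4 members (coloured) and the 22 detected genes of the skeletal and mesenchymal list (grey), ordered by mean. Mir214 is second below Mir335, Mir199b lies beside Mir455, and Mir199a-1 is next to last.

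The name skeletal mesenchyme rests on what is known of these genes, and the tissue held markers of other cell types as well. Including the 4 members, Mir140 and Mir455, all 6 markers of skeletal mesenchyme were detected and summed to 64669 CPM in replicate 1 and 64166 CPM in replicate 2. The members themselves made up 47564 and 48061 CPM of these sums, which are therefore no measure of the cell type apart from the members. Mir140 had 15199 and 14466 CPM and Mir455 had 1906 and 1638 CPM. The 7 epithelial genes were all detected and summed to 30805 and 35800.2 CPM, the endothelial gene Mir126a to 29030.3 and 27230 CPM, and the 2 smooth muscle genes (Mir143 and Mir145a, also on the skeletal list) to 12762 and 16558 CPM. The 3 markers of striated muscle summed to 1159.9 and 1543 CPM and the 3 erythroid ones to 223 and 331 CPM. Of 5 listed neural genes only Mir9-3 was detected, and Mir124a-1 and Mir9-2 were at 0 in both. All 5 share an 18-base stretch with another listed gene, as no epithelial, endothelial or smooth muscle marker does, so their low counts do not show that neural RNA was absent. From replicate 1 to replicate 2 the epithelial, smooth muscle, striated muscle and erythroid sums were higher, as were the 3 Mir199 genes, and their part in that difference was not tested. Not every marker followed its sum. Mir200a of epithelium (log2 ratio -0.43), Mir208b of striated muscle (-0.81) and the erythroid Mir486 (-0.31) were lower in replicate 2. The other markers of the epithelial, smooth muscle, striated muscle and erythroid lists were higher there. Of the skeletal mesenchyme markers, the 3 Mir199 genes were higher in replicate 2 and Mir214 hardly differed (0.0036). Mir140 (-0.076) and Mir455 (-0.22) were lower there.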

How the data were processed

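The authors deposited, for each of 2 libraries, a table of raw integer counts of reads for each miRNA gene, from an alignment to mm10 with GENCODE M4, per the library descriptions. The aligner and counter are not given in the sources used here. A table had a count on both strands and on either strand, and the strand with 96.8% and 96.7% of gene reads was taken as the gene's own. The 4 entries that name no gene (57.3% of all 11414919 reads in replicate 1 and 52.1% of 12792420 in replicate 2) stayed out of the library sizes, 4719337 and 5929220 own-strand reads. Symbols and positions were matched for 1894 of 1973 genes with GENCODE M21 on GRCm38. The members and lists were chosen with earlier results of these data known. Levels are CPM with exact Poisson intervals. Libraries were compared with a two-sided exact binomial test (scipy 1.17.1) on TMM library sizes (edgeR 4.0.16, R 4.3.3) over the 395 genes with at least 10 counts in both, adjusted by Benjamini-Hochberg, since 1 library against 1 leaves no residual degrees of freedom. On simulated counts for these 395 genes, with counting error alone and 200 genes changed 3-fold, 95.5% of changed genes were recovered and 1 unchanged gene was called. Intervals cover counting error only, since they hold no term for the spread between pools. They take each read as an independent count, and no molecular identifiers were used, so they may be too narrow. Hairpin windows were searched on both strands of the listed hairpins, as no genome was used here. Named genes were the members, listed genes within 10000 bases, genes sharing a seed, the 3 detected genes nearest in level to each member, a fixed skeletal list and fixed cell type markers. Of the markers, Mir126a is the endothelial list. Mir9-3, Mir124a-1, Mir9-2, Mir200a, Mir208b and Mir486 were picked out after their values were seen. Mirlet7a-1 and Mir1946b were named after their values were seen. Alternatives were the strand, the library size, the count minimum, the error model, the window length and each library left out. Replicates were separate pools, per the labels.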

Additional observations from a re-analysis of the deposited data

How the results depend on the processing

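Of 89 values recomputed under another setting, 72 kept their direction and their call (adjusted p of 0.05 with a 2-fold difference), stayed within the spread or, for counts, within 1.5 times. Part of that count was fixed in advance. With 2 libraries, either value lies within the SD of their mean, so values with 1 library left out could not move. A count minimum could not change a member's log2 ratio. By the adjusted p alone, 3 of 24 member values crossed 0.05: Mir214 with DESeq2 size factors, and Mir199b and Mir199a-2 with edgeR's exact test (edgeR adjusted p = 1). The order of the 4 genes held in each library. Scaled to 1000000 of all reads, the levels were 12.1 (Mir199a-1), 110.3 (Mir199a-2), 776 (Mir199b) and 20072 (Mir214), a smaller value by construction of the larger total. Scaled to 1000000 reads on genes with no shared 18-base stretch they were 33.8, 309, 2184 and 56614, larger by the smaller total. With reads on both strands Mir214 stood at 44276 CPM and its log2 ratio was -0.0075 in place of 0.0036, so its sign is not fixed. With DESeq2 size factors its log2 ratio was 0.024 (exact binomial adjusted p = 4.85e-08), and 3 members then passed the adjusted p. Over the 6 alternatives to the test, 0 members were called. With edgeR's exact test at a fixed coefficient 0 members passed the adjusted p with no limit on size, against 2, and 2 of all detected genes were called. With a minimum of 100 counts 6 of all genes were called, against 16, with fewer genes tested. Per base of the listed gene, Mir199a-2 exceeded Mir199a-1 by 5.83-fold, against 9.16 as the mean of both libraries. Without genes that share a stretch, the members held 28.9% of the reads on the members and the skeletal list, against 27.1%. With windows of 18 and 25 bases the share at 1 place was 77.4% and 93.0% for Mir199a-2. With either library left out, levels ranged from 23.9 to 30.7 CPM (Mir199a-1), 222 to 278 (Mir199a-2), 1689 to 1843 (Mir199b) and 45629.5 to 45909.9 (Mir214). The difference between libraries cannot be refitted with 1 left out. No paired analysis was possible because the libraries form 1 group.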
